A study of Saccharomyces cerevisiae with 12 samples.

Results

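The 10 genes described here are the yeast genes of gluconeogenesis and the glyoxylate cycle: the enzyme genes PCK1, FBP1, ICL1, MLS1, MDH2, ACS1 and IDP2, and the genes of the transcriptional activators CAT8, SIP4 and ADR1. They were chosen by name from the probe set annotation, with earlier results of these data known, and are 10 of 5656 genes tested. Each was read by 1 probe set of its own.

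Saccharomyces cerevisiae RNA was hybridised to 12 Affymetrix Yeast S98 arrays, 3 arrays from 3 cultures in each of 4 groups of diploid cells. The groups were the gpa2 deletion strain MLY132 in SLAM, the same strain in YPM, the wild-type strain MLY61 in SLAM and the wild type in YPM. MLY132 is MATa/alpha and carries delta gpa2::G418 on both copies, MLY61 is MATa/alpha with GPA2 intact, and both strains are homozygous for ura3-52. YPM is a rich maltose medium, in which cells grew to an OD600 of 1.0; for SLAM, such cells were filtered and held for 2 h at 30 °C in 0.17% yeast nitrogen base, 50 µM ammonium sulfate and 2% maltose. The media thus differ in more than ammonium, the SLAM recipe in the labels' protocols lists no uracil, and each genotype was 1 strain.

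Gluconeogenesis makes glucose phosphates from compounds of few carbons. When acetate or ethanol is the carbon source, the glyoxylate cycle supplies it by joining acetyl-CoA units into malate and succinate without the carbon losses of the tricarboxylic acid cycle. In yeast both routes are shut off in glucose, through repression of their genes and breakdown of their enzymes. Their genes are switched on, when glucose runs out, by zinc-finger activators that act downstream of the Snf1 protein kinase. Gpa2 is a G protein alpha subunit of the glucose-sensing branch that stimulates cAMP synthesis.

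GPA2 itself matched the labels, with log2 readings of 5.14 to 5.60 on the 6 deletion arrays and 9.70 to 11.10 on the 6 wild-type arrays. Array medians lay between 7.34 and 7.51. Of 12 haploid-specific genes, which MATa/alpha diploids repress, 6 averaged no more than 5.60 over the arrays (GPA1, STE18, FUS3, STE2, HO and NEJ1), while STE4, STE5, STE3, MFA1, MFA2 and RME1 averaged 6.33 to 8.49; levels on different probe sets are not on 1 scale. An array reads the average of a culture, so a change in every cell and a change in the share of cells cannot be told apart. Arrays of 1 group differed more in these genes than in most. The median SD over the members was 0.93 in gpa2 SLAM, 0.95 in gpa2 YPM, 0.92 in wild-type SLAM and 0.56 in wild-type YPM, against 0.34, 0.23, 0.39 and 0.21 over all genes. Some arrays stood apart from their groups, as the values of each gene below show, and the counts are given with and without them.

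In gpa2 cells, 9 of the 10 genes rose in SLAM and none fell (limma, Benjamini-Hochberg adjusted p < 0.05 over all genes), where 28.1% of all genes were called, 13.4% higher and 14.8% lower. In wild-type cells PCK1 and MLS1 rose, 2 of 10, where 12.6% of all genes were called, 5.23% higher and 7.34% lower. All 10 genes in gpa2 cells and 9 in wild-type cells had a SLAM mean above the YPM mean, as did 50.8% and 46.8% of all genes. At an unadjusted p < 0.05 by limma there were 10 members in gpa2 cells and 3 in wild-type cells, where 39.3% and 31.9% of all genes passed. The median log2 difference between SLAM and YPM over the 10 genes was 2.59 in gpa2 cells, where the median of all genes was 0.01, and 1.25 in wild-type cells, where it was -0.05. As single arrays were left out, the gpa2 median ran from 2.0 (without gpa2 SLAM replicate 3) to 3.27 (without gpa2 YPM replicate 3), and the wild-type median from 0.72 (without SLAM replicate 1) to 1.72 (without YPM replicate 2). The groups' values did not overlap in 8 of 10 genes in gpa2 cells (22.9% of all genes, SLAM above YPM) and in 4 of 10 in the wild type (15.2%). Between strains, CAT8 was the 1 member called, higher in gpa2 cells in SLAM, and no member's response to SLAM was called different between strains. Leaving out gpa2 YPM replicate 3 and wild-type SLAM replicate 2, the arrays that earlier results showed apart from their groups, gave 9 members higher in gpa2 cells and 5 in wild-type cells, where MDH2, ACS1 and IDP2 passed as well, with 35.1% and 27% of all genes called. Since the first of these arrays is high and the second low in the members, leaving them out raises the differences by construction. That fit kept gpa2 SLAM replicate 3, the highest of its group in all 10 genes. The arrays left out were not the pair of lowest limma array weight. The lowest weights were 0.166 for wild-type SLAM replicate 2, 0.33 for gpa2 SLAM replicate 3, 0.512 for gpa2 SLAM replicate 2 and 0.527 for gpa2 YPM replicate 3. The gpa2 count was 5 without gpa2 YPM replicate 1 or 2 or gpa2 SLAM replicate 3, and 6 without gpa2 SLAM replicate 1, with 16.7% to 22.2% of all genes called in these fits. The wild-type count was 0 without wild-type YPM replicate 2 or 3 or SLAM replicate 3, with 1.1%, 2.71% and 1.89% of all genes called. It was 1 without YPM or SLAM replicate 1 (6.91% and 7.83% of all genes) and 3 without SLAM replicate 2 (25%), so the count of members moved with the calls over all genes.

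**Figure D1:**
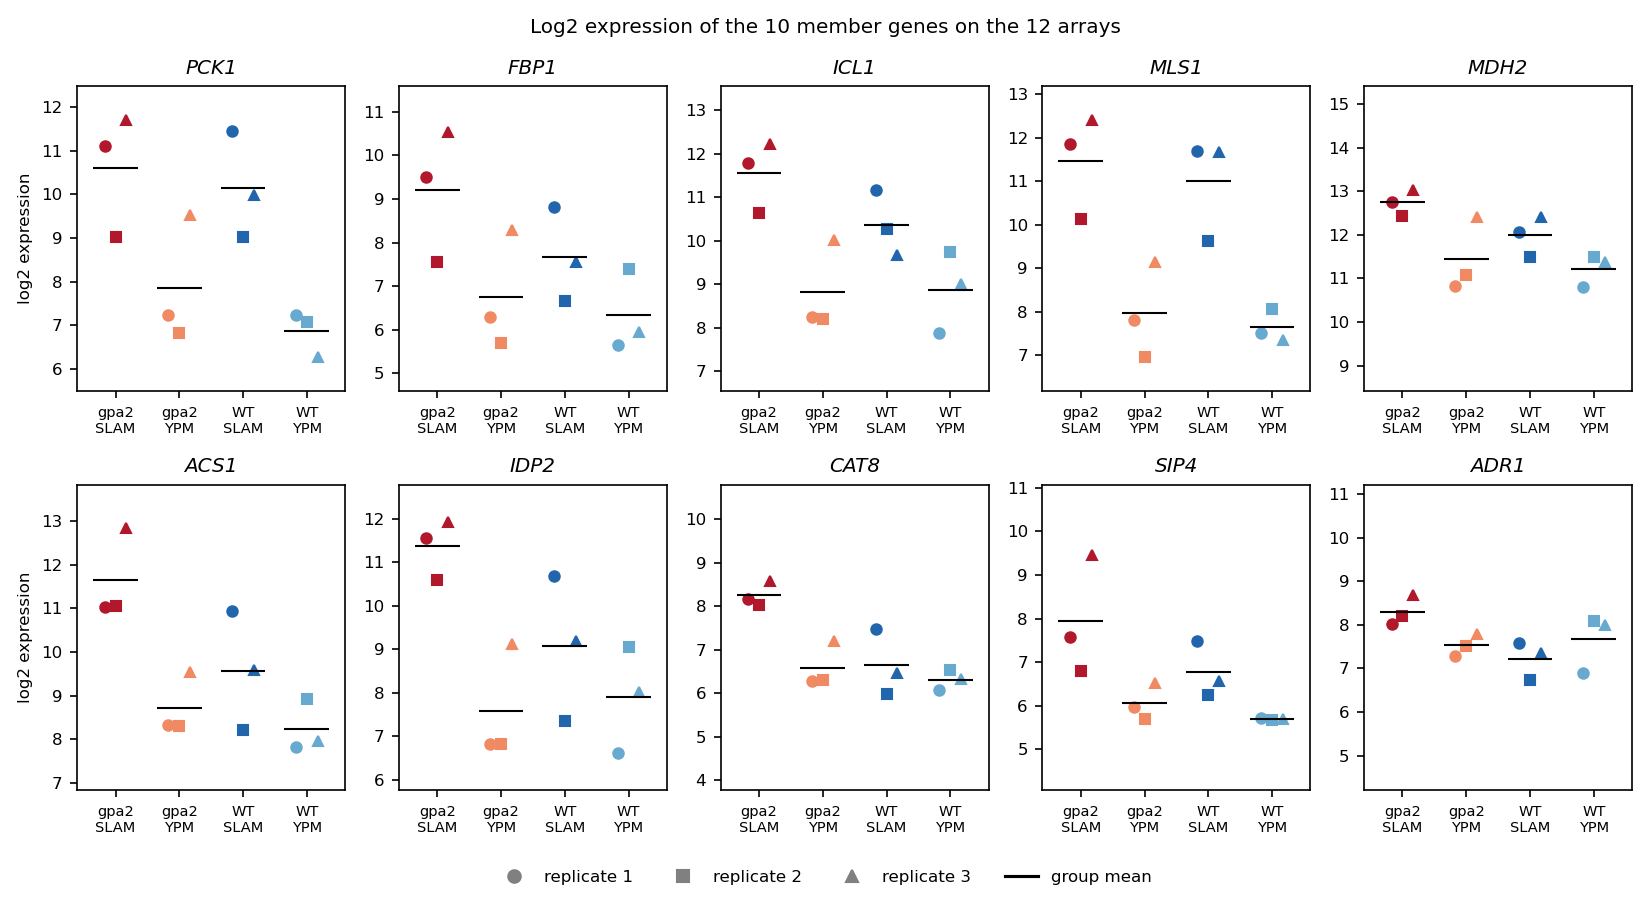
Log2 expression (y axis, a span of 7 log2 units in every panel) of each of the 10 genes on the 12 arrays, grouped on the x axis by strain and medium (WT, wild type); symbols are replicates and black lines are group means. SLAM arrays read above YPM arrays without overlap in 8 genes of the gpa2 strain and in 4 of the wild type, and gpa2 YPM replicate 3 is the highest of its group in all 10 genes.

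Gluconeogenesis has a pair of enzymes of its own, and the genes of both rose in gpa2 cells. PCK1 (YKR097W) encodes phosphoenolpyruvate carboxykinase, which turns oxaloacetate into phosphoenolpyruvate. It read 11.12, 9.02 and 11.71 on gpa2 SLAM arrays, against 7.24, 6.81 and 9.53 on gpa2 YPM arrays. In the wild type the readings were 11.45, 9.02 and 10.00 in SLAM, against 7.24, 7.07 and 6.27 in YPM. The wild-type groups were therefore apart, whereas gpa2 YPM replicate 3 lay above gpa2 SLAM replicate 2. PCK1 rose 6.77-fold in gpa2 cells (log2 2.76, SE 0.82, adjusted p = 0.0261, limma) and 9.81-fold in wild-type cells (log2 3.29, SE 0.82, adjusted p = 0.0271). The gpa2 value was 3.59 without gpa2 YPM replicate 3, and the wild-type value was 2.65 without SLAM replicate 1. Neither call held in every fit that left out 1 array. In these fits the estimates ran from log2 2.21 to 3.59 in gpa2 cells and from 2.65 to 3.86 in wild-type cells. The gpa2 call was lost without gpa2 YPM replicate 1 or 2 or gpa2 SLAM replicate 1 or 3 (adjusted p from 0.0926 to 0.111). There 16.7% to 22.2% of all genes were called. The wild-type call was lost without any wild-type array other than SLAM replicate 2 (adjusted p from 0.0520 to 0.0942), where 1.1% to 7.83% of all genes were called.

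FBP1 (YLR377C) encodes fructose-1,6-bisphosphatase, which reverses the phosphofructokinase step of glycolysis. Its readings were 9.51, 7.56 and 10.54 on gpa2 SLAM arrays, against 6.29, 5.70 and 8.28 on gpa2 YPM arrays. Wild-type arrays read 8.82, 6.66 and 7.55 in SLAM, against 5.64, 7.39 and 5.95 in YPM. In each strain 1 YPM array was above 1 SLAM array: replicate 3 of gpa2 YPM and replicate 2 of wild-type YPM, each against SLAM replicate 2 of its strain. FBP1 rose 5.45-fold in gpa2 cells (log2 2.45, SE 0.84, adjusted p = 0.0473), just inside the threshold. In wild-type cells the difference was log2 1.35 (SE 0.84, adjusted p = 0.295), with a 95% interval from -0.48 to 3.18. The gpa2 value ran from 1.78 without gpa2 SLAM replicate 3 to 3.27 without gpa2 SLAM replicate 2. FBP1 lost its gpa2 call in 8 of the 12 fits that left out 1 array, without gpa2 YPM replicate 1 or 2, gpa2 SLAM replicate 1 or 3, any wild-type YPM array or wild-type SLAM replicate 3 (adjusted p from 0.0502 to 0.178).

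Within the glyoxylate cycle, the gene of the second committed enzyme moved furthest and that of the malate dehydrogenase least. MLS1 (YNL117W) encodes malate synthase, which joins glyoxylate and acetyl-CoA into malate. It read 11.86, 10.13 and 12.39 on gpa2 SLAM arrays, against 7.81, 6.97 and 9.13 on gpa2 YPM arrays. Wild-type readings were 11.69, 9.61 and 11.66 in SLAM, against 7.51, 8.05 and 7.35 in YPM. All 6 SLAM arrays lay above all 6 YPM arrays. MLS1 rose 11.2-fold in gpa2 cells (log2 3.49, SE 0.69, adjusted p = 0.00365) and 10.2-fold in wild-type cells (log2 3.35, SE 0.69, adjusted p = 0.0155). The values were 4.16 and 4.04 without SLAM replicate 2 of the gpa2 strain and of the wild type. The gpa2 call held in all 12 fits that left out 1 array, and the wild-type call was lost without wild-type YPM replicate 2 or 3 or SLAM replicate 3 (adjusted p from 0.0592 to 0.0703).

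ICL1 (YER065C), the gene of isocitrate lyase, which splits isocitrate into glyoxylate and succinate, was called in gpa2 cells. It read 11.77, 10.65 and 12.23 on gpa2 SLAM arrays, against 8.24, 8.20 and 10.02 on gpa2 YPM arrays. On wild-type arrays the values were 11.16, 10.27 and 9.67 in SLAM, against 7.87, 9.74 and 9.01 in YPM. Wild-type YPM replicate 2 lay above wild-type SLAM replicate 3, and the gpa2 groups were apart. ICL1 rose 6.63-fold in gpa2 cells (log2 2.73, SE 0.61, adjusted p = 0.00645), in all 12 fits that left out 1 array (log2 3.33 without gpa2 YPM replicate 3), and stood at log2 1.49 in wild-type cells (SE 0.61, adjusted p = 0.120). MDH2 (YOL126C), the gene of the cytosolic malate dehydrogenase that turns the malate into oxaloacetate, had the smallest log2 rise of the 3 genes in gpa2 cells. Its values were 12.76, 12.44 and 13.04 on gpa2 SLAM arrays, against 10.84, 11.08 and 12.42 on gpa2 YPM arrays. In the wild type they were 12.07, 11.50 and 12.41 in SLAM, against 10.79, 11.50 and 11.37 in YPM. Replicate 3 of gpa2 YPM nearly reached the lowest gpa2 SLAM array, and the closest wild-type arrays of the 2 media read alike to 2 decimals. MDH2 rose 2.46-fold in gpa2 cells (log2 1.30, SE 0.39, adjusted p = 0.0280) and stood at log2 0.77 in wild-type cells (SE 0.39, adjusted p = 0.198). Its gpa2 call was lost without gpa2 YPM replicate 1 or 2 or gpa2 SLAM replicate 1 or 3 (adjusted p from 0.0752 to 0.123).

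The genes of acetyl-CoA and NADPH supply had the widest gap between the strains' estimates among the enzymes. IDP2 (YLR174W) encodes the cytosolic NADP-dependent isocitrate dehydrogenase, a source of NADPH on non-fermentable carbon. It read 11.56, 10.60 and 11.92 on gpa2 SLAM arrays, against 6.82, 6.83 and 9.13 on gpa2 YPM arrays. Wild-type arrays gave 10.68, 7.35 and 9.18 in SLAM, against 6.62, 9.06 and 8.03 in YPM, so the wild-type media overlapped. IDP2 rose 13.6-fold in gpa2 cells (log2 3.77, SE 0.86, adjusted p = 0.00707), the 14th largest rise of all 5656 genes, in all 12 fits that left out 1 array (from log2 3.38 to 4.54, the highest without gpa2 YPM replicate 3). In wild-type cells it stood at log2 1.17 (SE 0.86, adjusted p = 0.382, 95% interval from -0.71 to 3.04), with 0.36 without SLAM replicate 1 and 2.03 without SLAM replicate 2.

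ACS1 (YAL054C) encodes the acetyl-CoA synthetase that yeast uses on non-fermentable carbon. It read 11.03, 11.05 and 12.85 on gpa2 SLAM arrays, against 8.32, 8.31 and 9.54 on gpa2 YPM arrays. In the wild type it read 10.93, 8.20 and 9.59 in SLAM, against 7.81, 8.93 and 7.95 in YPM. Replicate 2 of wild-type SLAM fell among the wild-type YPM arrays, and no gpa2 SLAM array fell among those of gpa2 YPM. ACS1 rose 7.57-fold in gpa2 cells (log2 2.92, SE 0.67, adjusted p = 0.00713), again in all 12 fits that left out 1 array (log2 2.32 without gpa2 SLAM replicate 3). The wild-type difference was log2 1.34 (SE 0.67, adjusted p = 0.188), and without wild-type SLAM replicate 2 it was called (log2 2.03, adjusted p = 0.0380). Without wild-type SLAM replicate 1 it was 0.66.

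**Figure D2:**
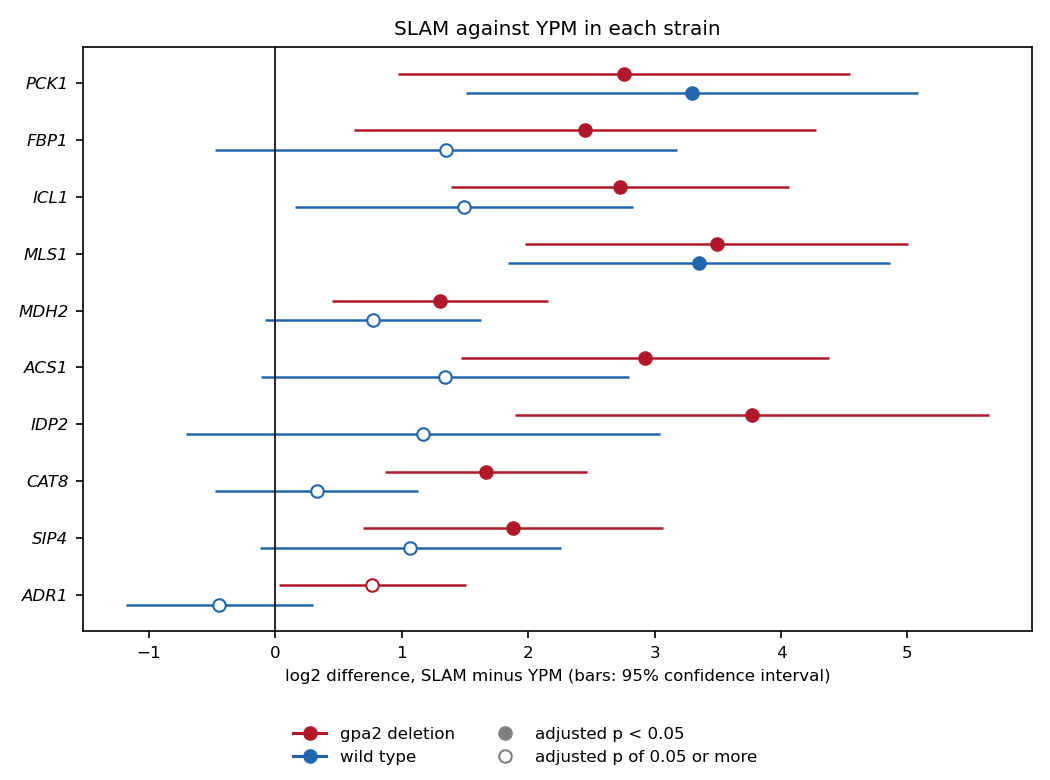
Log2 difference between SLAM and YPM (x axis) for the 10 genes (y axis) in gpa2 deletion and wild-type cells, with 95% confidence intervals as bars; filled points passed at adjusted p < 0.05. In gpa2 cells 9 genes passed, led by IDP2 at 3.77 and MLS1 at 3.49, and in wild-type cells PCK1 at 3.29 and MLS1 at 3.35 passed.

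Among the activators, CAT8 and SIP4 rose in gpa2 cells and none of the 3 was called in the wild type. CAT8 (YMR280C) encodes the zinc cluster protein that binds the carbon source response element of gluconeogenic promoters. It read 8.15, 8.03 and 8.59 on gpa2 SLAM arrays, against 6.27, 6.30 and 7.20 on gpa2 YPM arrays. The wild-type readings were 7.47, 5.97 and 6.48 in SLAM, against 6.08, 6.52 and 6.34 in YPM. The gpa2 media did not overlap, while wild-type SLAM replicate 2 was the lowest of the 6 wild-type arrays. CAT8 rose 3.18-fold in gpa2 cells (log2 1.67, SE 0.37, adjusted p = 0.00579), in all 12 fits that left out 1 array, and stood at log2 0.33 in wild-type cells (SE 0.37, adjusted p = 0.582).

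SIP4 (YJL089W) encodes a related zinc cluster protein that binds the same element, interacts with Snf1 and is itself under Cat8 control. It read 7.58, 6.79 and 9.46 on gpa2 SLAM arrays, against 5.98, 5.70 and 6.52 on gpa2 YPM arrays. On wild-type arrays it read 7.49, 6.24 and 6.56 in SLAM, against 5.72, 5.67 and 5.70 in YPM. The media were apart in both strains, and the wild-type YPM values sat close to the highest deletion reading of GPA2, 5.60, taken on another probe set. SIP4 rose 3.68-fold in gpa2 cells (log2 1.88, SE 0.55, adjusted p = 0.0233). It stood at log2 1.07 in wild-type cells (SE 0.55, adjusted p = 0.199). Replicate 3 of gpa2 SLAM carried much of the gpa2 rise, which was log2 1.12 without it (adjusted p = 0.0571), and the call was lost as well without gpa2 YPM replicate 1 or 2 (adjusted p of 0.0690 and 0.0878).

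ADR1 (YDR216W), the gene of the zinc-finger activator of ADH2, ACS1 and genes of fatty acid oxidation, was the member with no call in either strain. It read 8.01, 8.19 and 8.68 on gpa2 SLAM arrays, against 7.29, 7.51 and 7.78 on gpa2 YPM arrays. Wild-type arrays read 7.58, 6.73 and 7.35 in SLAM, against 6.90, 8.08 and 8.01 in YPM. The gpa2 media did not overlap, and the wild-type media did. The SLAM difference was log2 0.77 in gpa2 cells (SE 0.34, adjusted p = 0.112) and log2 -0.44 in wild-type cells (SE 0.34, adjusted p = 0.401).

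In SLAM, all 10 genes had positive log2 differences between gpa2 and wild-type cells, as did 47.6% of all genes, and 1 member was called, where 2.81% of all genes were called, 1.08% higher and 1.73% lower. The groups did not overlap in 4 members (MDH2, ACS1, CAT8 and ADR1), as in 10.8% of all genes. CAT8 was 3.07-fold higher in gpa2 cells (log2 1.62, SE 0.37, adjusted p = 0.0416), with every gpa2 SLAM array above every wild-type SLAM array. That call is fragile: it was lost in 10 of 12 fits that left out 1 array (adjusted p from 0.0551 to 0.132). In those fits 0.0707% to 6.81% of all genes were called. It held without gpa2 YPM replicate 3 or wild-type SLAM replicate 1 (3.91% and 3.38% of all genes). Leaving out a YPM array changes only the error and the adjustment, not the CAT8 difference in SLAM. IDP2 (log2 2.29, SE 0.86, adjusted p = 0.138), ACS1 (log2 2.07, SE 0.67, adjusted p = 0.0922) and ADR1 (log2 1.07, SE 0.34, adjusted p = 0.0894) were not called. ACS1 passed without wild-type SLAM replicate 1 (log2 2.75, adjusted p = 0.0463). At an unadjusted p < 0.05 these 3 and CAT8 made 4 of 10 members, where 22.9% of all genes passed.

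The other members did not pass at an unadjusted p < 0.05 in SLAM. FBP1 stood at log2 1.53 (SE 0.84, adjusted p = 0.313), ICL1 at 1.18 (SE 0.61, adjusted p = 0.279), SIP4 at 1.18 (SE 0.55, adjusted p = 0.220) and MDH2 at 0.75 (SE 0.39, adjusted p = 0.282). PCK1 and MLS1, the genes called in both strains' responses, stood at 0.46 (95% interval from -1.32 to 2.25) and 0.47 (from -1.04 to 1.98). The intervals span differences in both directions. Without wild-type SLAM replicate 2 the differences of PCK1 and MLS1 turned to -0.10 and -0.22, and without gpa2 SLAM replicate 3 that of PCK1 was -0.08.

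In YPM no member was called between strains by limma, none had an unadjusted p < 0.05, and the groups overlapped in all 10. Of all genes, 0.0177% were called (1 gene, lower in gpa2 cells, and 0% higher), 3.89% had an unadjusted p < 0.05 and 5.99% were higher in gpa2 cells without overlap. The differences ran from log2 -0.31 for IDP2 to 1.00 for PCK1, with a median of 0.30, and 7 were positive, against 39.4% of all genes. The positive ones leaned on gpa2 YPM replicate 3: without it the median over the members was -0.26, and FBP1, MLS1, MDH2 and CAT8 turned negative. The order of group means put gpa2 SLAM first for every member and wild-type SLAM second for all but ADR1, for which wild-type SLAM came last. Neighbours in that order overlapped except between gpa2 SLAM and wild-type SLAM for MDH2, ACS1 and CAT8, and between wild-type SLAM and gpa2 YPM for MLS1.

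**Figure D3:**
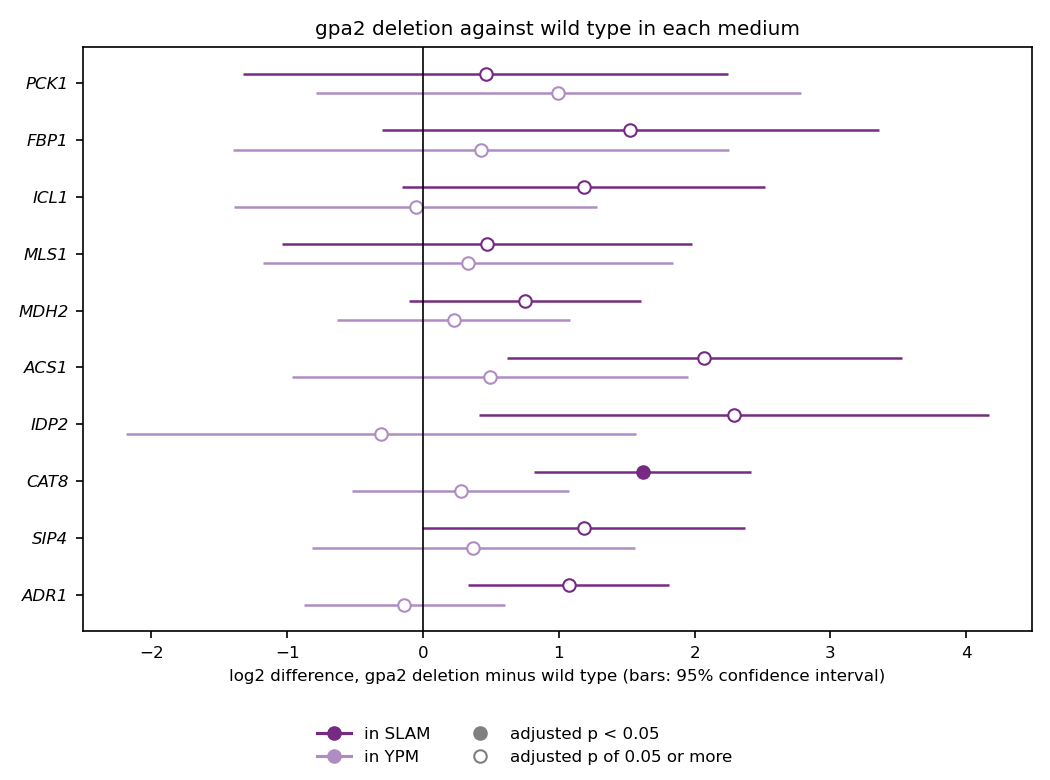
Log2 difference between gpa2 deletion and wild-type cells (x axis) for the 10 genes (y axis) in SLAM and in YPM, with 95% confidence intervals as bars; the filled point passed at adjusted p < 0.05. In SLAM all 10 estimates are above 0 and CAT8, at 1.62, passed; in YPM none passed.

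The strains' responses to SLAM were compared directly as the gpa2 change minus the wild-type change. No member passed (0 of 10, with every adjusted p at 0.980 or above), nor did any of the 5656 genes (0%). CAT8 (log2 1.34, SE 0.52) and ADR1 (log2 1.21, SE 0.48) had an unadjusted p < 0.05 by limma, as did 4.03% of all genes. The difference was above 0 in 9 members and in 54% of all genes. The IDP2 response differed by log2 2.60 (SE 1.22), the second largest positive difference of all genes, with a 95% interval from -0.05 to 5.25. For MLS1 the responses were close in estimate, with a difference of 0.14 (SE 0.98). PCK1 alone had a negative difference, -0.53 (interval from -3.06 to 1.99). A member called in gpa2 cells and not in wild-type cells is therefore not shown to differ between them.

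Within a group, the 10 genes moved together from array to array. Replicate 3 of gpa2 YPM was the highest of its group in all 10 genes, as was replicate 3 of gpa2 SLAM; 41.0% and 31.3% of all genes were highest there. Replicate 2 was the lowest in 9 members in wild-type SLAM and in 8 members in gpa2 SLAM (41.7% and 35.5% of all genes). The 7 enzymes averaged 1.57 above the wild-type YPM mean on gpa2 YPM replicate 3, against -0.21 and -0.45 on the other gpa2 YPM arrays. On wild-type SLAM replicate 2 they averaged 0.79, against 2.82 and 1.86 on the other wild-type SLAM arrays. Gene pairs among the members had correlations of their deviations from the group means between 0.37 and 0.93 (median 0.77, 45 pairs, 12 arrays, all pairs sharing the same arrays), and all 45 were above 0. These deviations carry 8 residual degrees of freedom, and correlations over pairs of other genes were not computed. FBP1 followed the mean of the other enzymes most closely (r = 0.97) and ADR1 least (r = 0.69).

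**Figure D4:**
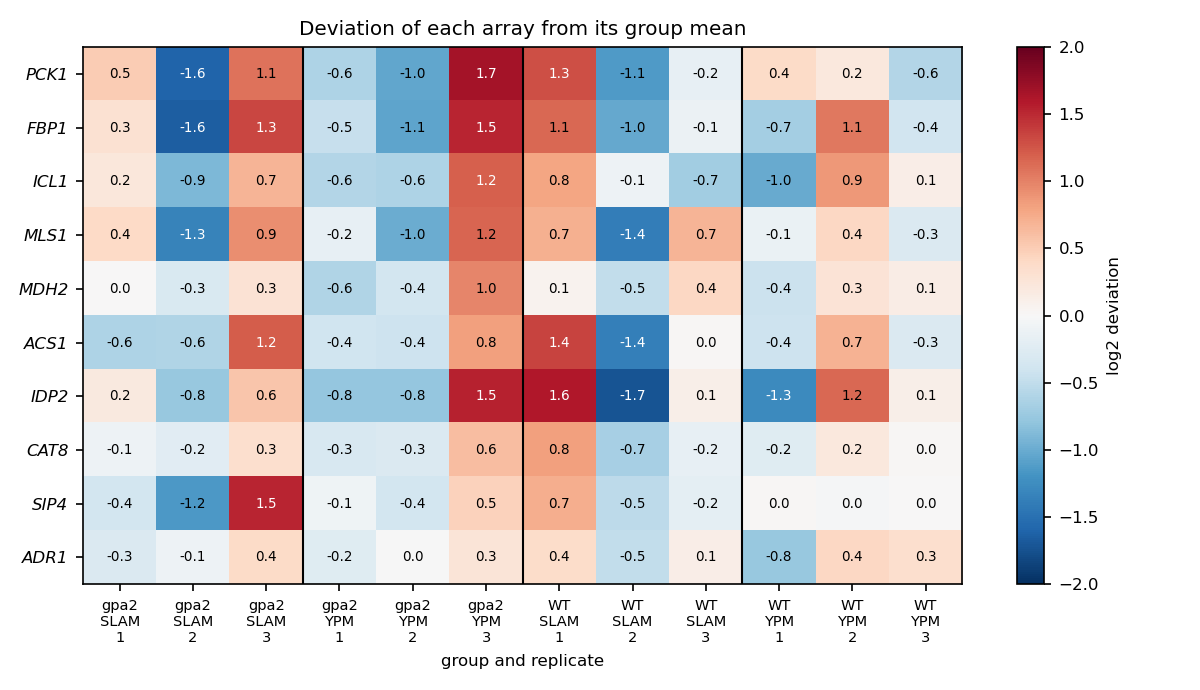
Deviation of log2 expression from the group mean (colour and printed value) for the 10 genes (rows) on the 12 arrays (columns; WT, wild type). Columns tend to hold 1 sign: replicate 3 of gpa2 SLAM and of gpa2 YPM are above their group mean in all 10 genes, and replicate 2 of gpa2 SLAM and of wild-type SLAM are below it in all 10.

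Outside the 10 genes, the array-to-array pattern of the 7 enzymes was matched most closely by ECM10, the gene of a mitochondrial heat shock protein of the Hsp70 family (r = 0.98 over the 12 arrays, 0.93 on deviations from the group means). The next 9 genes had r from 0.955 to 0.967 over the arrays, on which both media and strains differ. They were AVT3, for a vacuolar amino acid exporter, GSM1, for a zinc cluster protein, FMP40, the lipid droplet genes LDO16 and PLN1, CRC1, for the mitochondrial carnitine carrier, OM14, for a mitochondrial outer membrane protein, the meiotic gene REC107 and AAC1, for an ADP/ATP carrier. Since the 7-enzyme mean is itself higher in gpa2 SLAM, the choice by r favours genes that are too. All 10 were called higher in gpa2 SLAM (13.4% of all genes), between log2 0.94 for GSM1 and 2.25 for CRC1. In wild-type SLAM, AVT3 (log2 0.88), LDO16 (1.04) and PLN1 (1.58) were called.

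Carriers and the carnitine shuttle, which bring acetyl units and C4 acids across membranes, had 6 of 13 genes called higher in gpa2 cells (13.4% of all genes) and 1 of 13 in wild-type cells (5.23% of all genes). SFC1, the mitochondrial succinate-fumarate carrier that hands glyoxylate cycle succinate to the mitochondrion, rose by log2 2.39 in gpa2 cells (SE 0.79, adjusted p = 0.0406). Its readings were 9.22, 8.58 and 10.10 in gpa2 SLAM against 6.24, 6.01 and 8.50 in gpa2 YPM, with replicate 3 of YPM again the highest of its group. CAT2, the carnitine acetyltransferase gene, rose in both strains, by 2.33 in gpa2 cells (SE 0.32, adjusted p = 0.000723) and 2.01 in wild-type cells (SE 0.32, adjusted p = 0.00616). CRC1 and the acetate transporter family gene ATO2 (log2 2.06, SE 0.56) were also among the largest gpa2 rises. Over the list the median was 0.94 in gpa2 cells and 0.59 in wild-type cells. The gpa2 count ranged from 2 to 6 as single arrays were left out, with 2 without gpa2 YPM replicate 2, 3 without gpa2 YPM replicate 1, 4 without gpa2 SLAM replicate 1 or 3, and the wild-type count was 3 without gpa2 YPM replicate 3 and 2 without gpa2 SLAM replicate 2 or 3.

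The GID ubiquitin ligase, which marks Fbp1 and other gluconeogenic enzymes for breakdown when glucose returns, had 8 of 10 genes called higher in gpa2 SLAM (13.4% of all genes) and 4 of 10 in wild-type SLAM (5.23% of all genes). GID10, for a substrate receptor, read 9.83, 8.10 and 9.23 in gpa2 SLAM against 6.53, 6.15 and 6.51 in gpa2 YPM, and rose by log2 2.65 (SE 0.48, adjusted p = 0.00235). It also rose in wild-type cells, by 1.64 (SE 0.48, adjusted p = 0.0436). UBC8, for the ubiquitin-conjugating enzyme of the complex, rose by 1.84 in gpa2 cells (SE 0.35, adjusted p = 0.00303) and 1.54 in wild-type cells (SE 0.35, adjusted p = 0.0197). GID11 and FYV10 rose in both strains too, by log2 1.78 and 1.26 in gpa2 cells and by 1.24 and 1.31 in wild-type cells. The ligase genes thus moved in the direction of the enzymes' genes, with medians of 1.19 in gpa2 cells and 0.89 in wild-type cells. The media did not overlap in 9 of 10 in gpa2 cells (22.9% of all genes) and in 6 of 10 in wild-type cells (15.2%). VID24 overlapped in both strains. It read 8.59 to 9.77 in gpa2 SLAM against 7.99 to 8.93 in gpa2 YPM, and 7.15 to 9.94 in wild-type SLAM against 7.36 to 8.20 in wild-type YPM. The gpa2 count was 7 to 9 whichever array was left out. The wild-type count was 0 without wild-type YPM replicate 2 or 3 or SLAM replicate 3, 1 and 2 without SLAM or YPM replicate 1, and 7 without SLAM replicate 2. Of all genes, 1.1% to 2.71% were called in the fits with 0, and 25% in the fit with 7.

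Isozymes and partner steps had smaller median differences than the members. In gpa2 cells 5 of 14 were called higher and 1 lower (13.4% and 14.8% of all genes). Those that rose included DAL7, the malate synthase gene of allantoin use (log2 2.29, SE 0.57), the peroxisomal isocitrate dehydrogenase gene IDP3 (1.60, SE 0.37) and ICL2 (1.11, SE 0.36). MAE1, for the mitochondrial malic enzyme, fell by 1.28 (SE 0.44, adjusted p = 0.0473). None of the 14 was called in wild-type cells by limma, where 4 had an unadjusted p < 0.05. Medians were 0.37 in gpa2 cells and 0.21 in wild-type cells. The gpa2 count of 6 calls was 2 without gpa2 YPM replicate 1 or 2 or gpa2 SLAM replicate 1, 3 without gpa2 SLAM replicate 2 and 4 without gpa2 SLAM replicate 3, and 2 were called in the wild type without wild-type SLAM replicate 2.

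Of 8 genes of acetate and acetyl-CoA supply, 1 was called higher and 1 lower in the wild type (5.23% and 7.34% of all genes). With 8 genes, these counts are near the shares over all genes. The cytosolic aldehyde dehydrogenase gene ALD6 fell by 2.69 on the log2 scale (SE 0.69, adjusted p = 0.0294) and ALD2, another cytosolic form, rose by 1.50 (SE 0.30, adjusted p = 0.0144). In gpa2 cells ALD2 rose by 1.71 (SE 0.30, adjusted p = 0.00222) and was the only call among 8 genes, where 28.1% of all genes were called. ALD2 read low in YPM, at 4.75 to 4.95 on gpa2 arrays and 4.05 to 4.46 on wild-type arrays. These readings lay below the lowest deletion reading of GPA2, 5.14, taken on another probe set. In SLAM ALD2 read 6.30 to 6.91 on gpa2 arrays and 4.93 to 6.11 on wild-type arrays. ALD3 was higher in gpa2 than in wild-type cells in SLAM (log2 2.37, SE 0.49, adjusted p = 0.0380), and its difference in YPM was 1.61 (SE 0.49, adjusted p = 0.994). The ALD3 call was lost when any wild-type YPM array was left out, and without gpa2 YPM replicate 1 or 2, gpa2 SLAM replicate 1 or 3, or wild-type SLAM replicate 2. The wild-type pair of calls was gone without wild-type YPM replicate 2 or SLAM replicate 3 (1.1% and 1.89% of all genes called). Without wild-type YPM replicate 1 or 3, 1 call was left (6.91% and 2.71% of all genes). The gpa2 count was 3 without gpa2 SLAM replicate 2 or gpa2 YPM replicate 3, and 2 without gpa2 SLAM replicate 3 or wild-type SLAM replicate 1. Of all genes, 22.2% to 28.5% were called in gpa2 cells in these fits.

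Of 10 genes of the opposing steps of glycolysis and their regulators, 2 were called higher and 2 lower in gpa2 cells (13.4% and 14.8% of all genes). In wild-type cells 1 was called higher and 1 lower (5.23% and 7.34% of all genes). With 10 genes, these counts are near the shares over all genes. The calls were in regulators and a hexokinase, and none in the phosphofructokinase or main pyruvate kinase genes. PFK1, PFK2 and CDC19 stood at log2 0.23, 0.20 and -0.29 in gpa2 cells and at 0.15, 0.01 and -0.08 in wild-type cells. HXK2, for the hexokinase that also takes part in glucose repression, fell by 3.63 in gpa2 cells (SE 0.52, adjusted p = 0.000809) and by 2.38 in wild-type cells (SE 0.52, adjusted p = 0.0176). It read 6.88, 7.37 and 6.60 in gpa2 SLAM against 10.90, 11.50 and 9.34 in gpa2 YPM, so that gpa2 YPM replicate 3, where all 10 members were high, was the lowest of its group; the part of such array differences in the members' results was not tested beyond leaving arrays out. HXK2 was also lower in gpa2 than in wild-type cells in SLAM (log2 -2.41, SE 0.52, adjusted p = 0.0391). That call was lost without gpa2 YPM replicate 1, gpa2 SLAM replicate 1 or 3, any wild-type YPM array or wild-type SLAM replicate 2. In YPM the strain difference of HXK2 was log2 -1.16 (SE 0.52, adjusted p = 0.994, limma). Its responses to SLAM differed by -1.25 (SE 0.73, adjusted p = 0.980), and neither was called. The fructose-2,6-bisphosphate enzymes PFK26 and FBP26 rose in gpa2 cells by 2.01 and 1.76, PFK27 fell by 1.33 (adjusted p = 0.0475), and PFK26 rose in wild-type cells by 1.33. In gpa2 cells the list had 1 gene called lower, in place of 2, when any array other than gpa2 YPM replicate 3 or SLAM replicate 2 of either strain was left out. The wild-type calls of this list were lost without wild-type YPM replicate 2 or 3 or SLAM replicate 3, and 3 were made without SLAM replicate 2.

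Transcripts of the Snf1 kinase and its regulators had no call among 11 genes in any comparison by limma. In gpa2 cells 1 of them had an unadjusted p < 0.05 between the media, SIP2 (log2 0.98, SE 0.36, adjusted p = 0.0614), and in wild-type cells 0. The list had 2 calls in gpa2 cells without wild-type SLAM replicate 2 and 1 without gpa2 YPM replicate 3 or wild-type SLAM replicate 1, and 1 call in wild-type cells without SLAM replicate 2. SNF1 stood at 0.43 in gpa2 cells (SE 0.22, adjusted p = 0.164). Among 13 other carbon-source transcription factors, 2 were called higher in gpa2 cells (13.4% of all genes) and 1 in wild-type cells (5.23%), near those shares. PIP2, a partner in fatty acid induction, rose in gpa2 cells (log2 1.13, SE 0.23) and wild-type cells (0.81, SE 0.23). GSM1 rose in gpa2 cells (0.94, SE 0.24). The wild-type call of PIP2, at adjusted p = 0.0404, was lost without replicate 1 of either gpa2 group or any wild-type array other than SLAM replicate 2, without which the list had 2. In gpa2 cells the list had 1 call without YPM replicate 1 or 2, 3 without SLAM replicate 2 and 4 without gpa2 YPM replicate 3 or wild-type SLAM replicate 2. Of all genes, 16.7% to 34.6% were called in gpa2 cells in these fits. In wild-type cells 25% were called without wild-type SLAM replicate 2. MIG1, for the glucose repressor, stood at log2 -0.78 between gpa2 and wild-type cells in SLAM (SE 0.24, adjusted p = 0.0873). MIG3, with the smallest p of the list there, went the other way, at log2 0.84 (SE 0.24, adjusted p = 0.0758). Neither was called by limma. In YPM MIG1 stood at -0.59 between the strains (SE 0.24, adjusted p = 0.994).

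**Figure D5:**
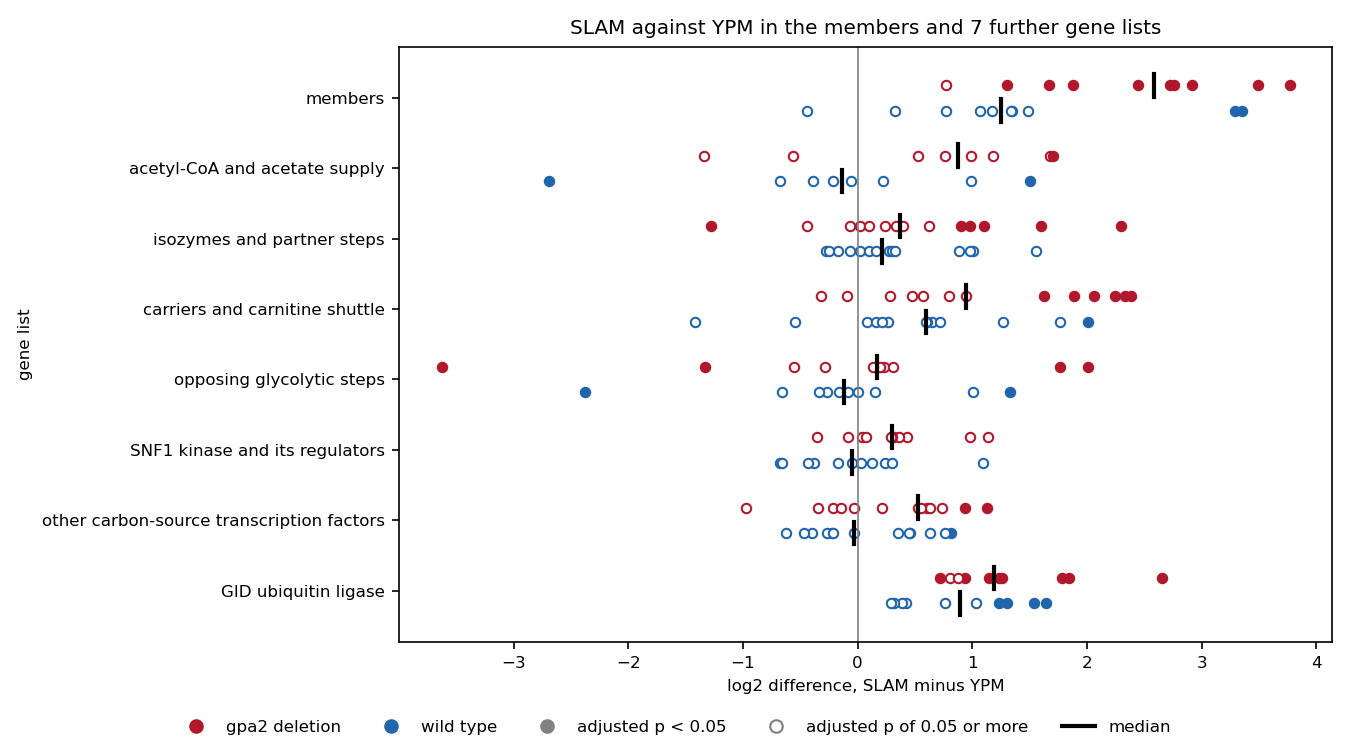
Log2 difference between SLAM and YPM (x axis) of each gene in the members and the 7 further lists (y axis), in gpa2 deletion cells (upper row of each list) and wild-type cells (lower row); filled points passed at adjusted p < 0.05 and black ticks are medians. The member medians are 2.59 in gpa2 cells and 1.25 in wild-type cells, and those of the GID ligase genes 1.19 and 0.89.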

How the data were processed

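The authors deposited log2 expression values for 9335 probe sets on 12 arrays; GCOS 1.2, MAS5 and RMA appear in the submitters' processing notes, and which of them gave the values is not stated. All 12 columns were used, with no further normalization. After 60 control probe sets were left out, 6504 probe sets had 1 gene symbol in the platform annotation, 328 several and 2443 none; the last 2 kinds were left out. A gene with several probe sets (315 genes) kept the one with the highest mean, giving 5656 genes. Replicates are numbered in accession order.

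The log2 values of all arrays entered 1 limma fit (version 3.58.1, R 4.3.3) with a mean for each group (lmFit and eBayes, 8 residual and 4.11 prior degrees of freedom), tested on simulated data. P values are two-sided, with Benjamini-Hochberg adjustment across the 5656 genes, and 0.05 is the threshold; SE is that of the log2 difference. The number of arrays limits the precision.

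Members, lists, naming rule and alternatives were chosen with earlier results of these data known. All 10 members were named. In each further list, the rule picked up to 4 called genes with the largest changes per comparison, or the 2 with the smallest p where none passed. Not all of these are named for every comparison, above all where none passed. A few more were named after their values were seen (PFK1, PFK2, CDC19, ALD3 in YPM). The 10 genes of highest r with the 7-enzyme mean were also named. Alternatives were quantile normalization, median centring, a floor at the 10th percentile (log2 4.32), dim genes left out (3484 kept), every probe set tested, fits to the compared groups' arrays alone, array weights, robust moderation with a variance trend, adjusted p < 0.01, each array left out and both arrays that stood apart left out. No sequences were used here.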

Additional observations from a re-analysis of the deposited data

How the results depend on the processing

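Of 1085 values of single members under the alternatives, 986 kept direction and call, 54 lost a call, 10 gained one and 35 changed sign. None of those 35 was a called value, and the causes were not tested. A call could be lost only where the main fit had made one. Of the losses, 29 were between media in gpa2 cells, 10 between media in wild-type cells and 15 between strains in SLAM, all of CAT8. The strain difference in YPM and the difference of responses had no call to lose. They gave 199 and 200 of the values that kept direction and call. In gpa2 cells 9 members passed between media, against 5 with only the arrays of the comparison, 5 at adjusted p < 0.01 and 5 to 9 as single arrays were left out (5 without gpa2 YPM replicate 1 or 2 or gpa2 SLAM replicate 3). In wild-type cells the 2 calls became 6 with array weights (39.6% of all genes called, against 12.6%), 5 without both arrays that stood apart, 0 at adjusted p < 0.01 and 0 to 3 as single arrays were left out (0 without wild-type YPM replicate 2 or 3 or SLAM replicate 3). The single strain call in SLAM became 0 with the floor, all probe sets, only the arrays of the comparison, both arrays left out or adjusted p < 0.01, and 0 to 2 as single arrays were left out. No alternative called a member between strains in YPM or in the difference of responses. Signs changed as follows. Between strains in YPM, FBP1 became -0.13 with array weights and -0.33 without both arrays, MDH2 -0.25 and -0.26, MLS1 -0.25 and CAT8 -0.029 without both arrays, and ICL1 0.022 with median centring. As single arrays were left out, these YPM differences ran from -0.33 to 0.96 for FBP1, -0.66 to 0.38 for ICL1, -0.25 to 0.83 for MLS1, -0.26 to 0.53 for MDH2, -1.08 to 0.27 for IDP2, -0.029 to 0.44 for CAT8 and -0.52 to 0.071 for ADR1. Between strains in SLAM, PCK1 became -0.10 and MLS1 -0.22 without both arrays, with ranges over single arrays from -0.10 to 1.26 and from -0.22 to 1.14. In the difference of responses, MLS1 became -0.072 with quantile normalization, and the single-array ranges were -0.55 to 0.80 for MLS1 and -1.10 to 0.30 for PCK1. The wild-type CAT8 response ran from -0.087 to 0.66. Of 490 counts of calls in lists, 411 stayed within 1.5 times, 36 were higher and 43 lower. The 411 include 98 of 98 for strains in YPM and 98 of 98 for the difference of responses, where the lists had no call. Leaving out the dim genes dropped SIP4, so it has no value there. No paired analysis was possible because the labels give no replicate numbers shared between groups. The array titles alternate YPM and SLAM within each strain, but do not say whether neighbours came from the same culture.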
